A study of Homo sapiens with 15 samples.

Results

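Add-back KPL4 cells given the estrogen receptor β (ERβ) agonist LY500307 in hormone-depleted medium were compared with add-back cells that received no treatment, 3 libraries against 3, which are 6 of the 15 libraries of the series. KPL4 is a human breast adenocarcinoma line with amplified ERBB2 (HER2). Every cell in the comparison carried a knockout of ERβ, encoded by ESR2, and ERβ that had been transfected back. The LY500307 group was held for 72 h in medium without phenol red and with 1% serum stripped by charcoal, and then for 24 h with 200 nM LY500307 in that medium. A vehicle group of 3 libraries was treated alike but with DMSO in place of the agonist. The untreated add-back group is taken to have grown in the maintenance medium, F12 with 7% serum, insulin and hydrocortisone. The labels do not say so for the time of harvest, and do not say whether the depleted medium kept insulin and hydrocortisone. Medium, serum, DMSO and agonist therefore changed together, and only the vehicle group separates the agonist from the rest. The labels do not state whether the add-back cells were 1 clone or whether replicates were separate cultures, so p-values measure the spread between these libraries.

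ERβ is a nuclear receptor that, bound by ligand, takes up positions on DNA and changes the transcription of nearby genes. Charcoal treatment strips steroids, thyroid hormones and retinoids from serum, and phenol red, itself weakly estrogenic, is left out for the same reason. Less serum also means less growth factor and lipid. Genes driven by estrogen receptors, such as GREB1 and TFF1, are the usual readout of an agonist given back to depleted cells.

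Ribosomal RNA was removed from total RNA before sequencing, and the authors' expected counts summed to 16843036 to 18100010 in LY500307 libraries, 15046862 to 19390378 in vehicle libraries and 14966501 to 17736189 in untreated libraries. ESR2 had 45, 44.2 and 42.4 CPM in LY500307 libraries, 41.7, 45.9 and 48 CPM in vehicle libraries and 34.1, 33.8 and 30.6 CPM in untreated libraries, so it was somewhat higher in both depleted groups (0.42 ± 0.08 (SE; adjusted p = 0.000429) for LY500307 against untreated). Its locus overlaps SYNE2 on the other strand, which averaged 201 CPM over the 6 libraries, and the use of strand in counting is not given in the sources used here. ESR1, which encodes ERα, fell to 10.5, 10.1 and 10.4 CPM with LY500307, against 15.9, 19.2 and 16.2 CPM in untreated libraries, and it overlaps SYNE1 in the same way. All 7 KPL4 and epithelial markers were present, and ERBB2 averaged 6194 CPM with LY500307 and 5271 CPM untreated. Set against untreated libraries alone, these levels of ESR1 and ERBB2 do not separate the agonist from the medium. Of 9 markers of other cell types, 6 had too few reads to be tested (at most 23 reads over the 3 libraries of a group). CD68, a lysosomal protein of macrophages that other cells can make, and VWF rose in both depleted groups, while COL1A1, a collagen of fibroblasts, was called lower with vehicle (-0.61) and not with LY500307 (-0.35). PTPRC, CD3E, PECAM1 and PDGFRB stayed near 0. In bulk RNA, fewer cells of a type and less RNA per cell cannot be told apart.

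Libraries also differed in the level of GC-rich genes. The mean level of the 25% of genes richest in GC, less that of the poorest 25% (log2, centred over all 15 libraries), was 0.014, 0.0147 and -0.09 in LY500307 libraries 1 to 3, -0.33, -0.35 and -0.16 in vehicle libraries and 0.27, 0.29 and 0.21 in untreated libraries. The groups did not overlap, and library 3 of the LY500307 and vehicle groups lay nearer to the other group than its 2 fellows did. Its part in the results was not tested, beyond a fit with offsets that remove each library's trend on GC content and length, whose values are given beside the counts and the named genes' classes it changes.

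**Figure D1:**
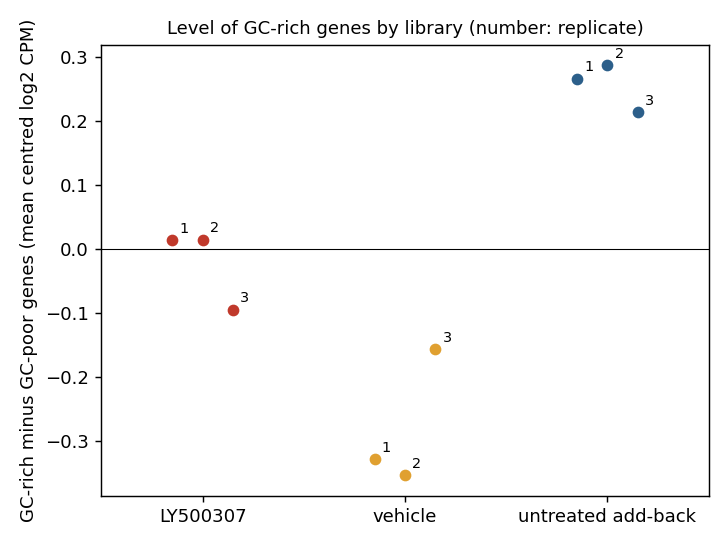
Each point is 1 library, numbered by replicate. The y axis gives the mean centred log2 CPM of GC-rich genes less that of GC-poor genes. Untreated libraries lie highest, LY500307 libraries lie around 0 and vehicle libraries lie lowest.

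Most of what separated LY500307-treated from untreated cells was already present in vehicle cells. Of 19516 genes tested with edgeR's quasi-likelihood test (a call being a p below 0.05 after Benjamini-Hochberg adjustment), 7850 (40.2%) were called between LY500307 and untreated libraries, 4374 higher (22.4%) and 3476 lower (17.8%). At least 2-fold changes were called for 621 genes that were higher (3.18%) and 536 that were lower (2.75%), and the libraries of both groups did not overlap for 51.1% of genes tested. Vehicle against untreated gave 9381 calls (48.1%), 5160 higher (26.4%) and 4221 lower (21.6%). The balance of the calls depended on the scaling: 55.7% were higher for LY500307 against untreated, but 45.8% with upper-quartile factors and 48.8% with the GC and length offsets, and for vehicle against untreated the shares were 55.0%, 48.1% and 48.0%. LY500307 against vehicle gave 1389 (7.12%), 931 higher (4.77%) and 458 lower (2.35%). The last count was 324 with the GC and length offsets and ran from 299 to 1844 when single libraries were left out. It was 299 without vehicle 2, 403 without vehicle 1, 487 without LY500307 2 and 586 without LY500307 1.

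Genes were then sorted by their 3 calls. Of the 9381 genes called between vehicle and untreated libraries, 6819 (72.7%) stayed changed in the same direction with LY500307, 3939 higher and 2880 lower. Among these, 5993 had no call between LY500307 and vehicle, 746 were called back towards the untreated level and 80 were called further from it. A further 324 genes (3.45%) sat at the full-medium level with LY500307: they were called back from vehicle, were not called against untreated, and the 95% interval of their change from untreated lay within a rise of 25% or the matching fall. Their median vehicle change, 0.22 for the 102 higher and -0.295 for the 222 lower, was itself inside that band. The interval alone therefore cannot show a return, and calls of at least 1.5-fold left 8 genes. Another 12 genes went past the full-medium level, all of them lower in vehicle than in untreated libraries and higher with LY500307 than in both. Agonist-only changes, called against both groups with no vehicle call, were found for 98 genes, 58 higher and 40 lower. Another 2151 genes had a vehicle call alone and were not assigned, although 1054 of them had an interval within that band. The comparisons share libraries. Noise in the untreated libraries moves both comparisons against them the same way, so the 72.7% that stayed changed is a count under the rule and not a measure of agreement. Noise in the vehicle libraries moves vehicle against untreated and LY500307 against vehicle in opposite directions. With the GC and length offsets 6414 genes stayed changed, of which 4669 were among the 6819. The at-level class then held 72 genes, of which 35 were among the 324, the called-back class held 151 and the agonist-only class 38.

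**Figure D2:**
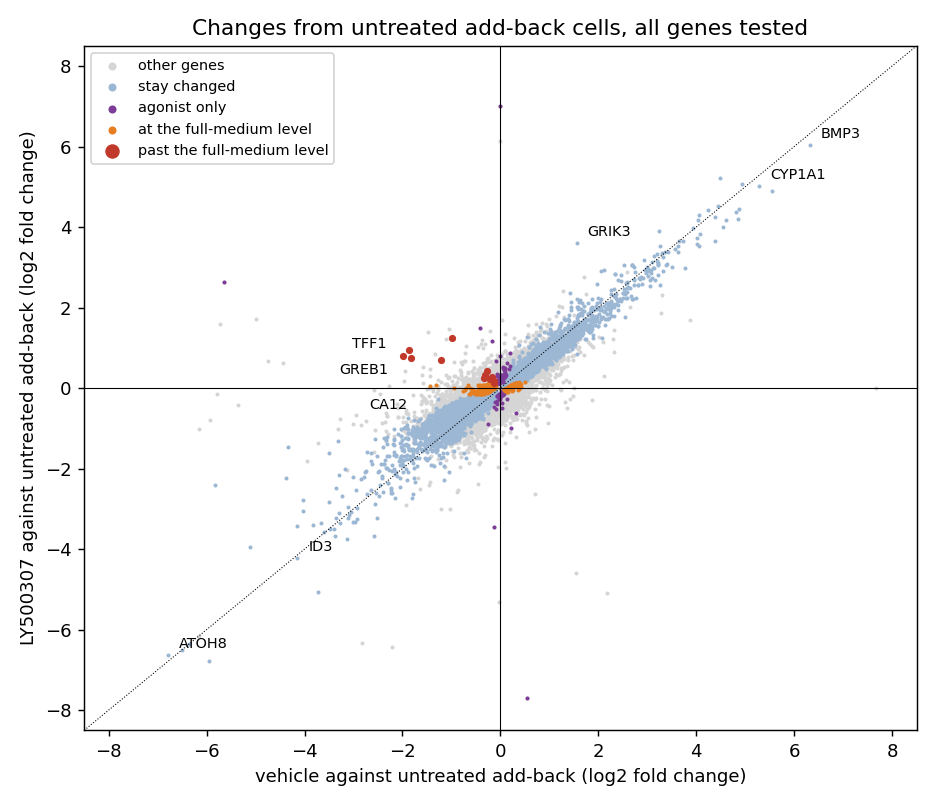
Each point is a gene. The y axis gives the log2 fold change of LY500307 against untreated add-back cells and the x axis that of vehicle against untreated, and both share the untreated libraries. Most genes lie near the dotted line of equal change, while GREB1 and TFF1 lie above 0 on the y axis and below 0 on the x axis.

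Of 22 estrogen-responsive genes tested, 12 were called higher and 0 lower with LY500307 than with vehicle, beside 4.77% and 2.35% of all genes. With the GC and length offsets the counts were 11 and 0. The median log2 change was 0.29, beside -0.02 for all genes. Against untreated cells, 10 members were higher and 6 lower with LY500307 (median 0.07), while 7 were higher and 13 lower with vehicle (median -0.36). The shares of all genes were 22.4% and 17.8% with LY500307, and 26.4% and 21.6% with vehicle. The list, like the others, was drawn up with earlier results of these data known. Members beyond the 4 with the smallest p are named here with their values already seen.

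GREB1, an estrogen-receptor cofactor, was 1 of the 12 genes past the full-medium level. It had 21.8, 21.3 and 22.7 CPM with LY500307, 3.33, 3.63 and 4.09 CPM with vehicle and 13.8, 14.9 and 10.3 CPM in untreated libraries. The LY500307 libraries all lay above the untreated ones (0.75 ± 0.12 (SE; adjusted p = 3.66e-05)), which lay above the vehicle ones. TFF1, a secreted trefoil peptide and classic estrogen target, had 4.13, 4.23 and 3.76 CPM with LY500307, 0.718, 0.641 and 0.341 CPM with vehicle and 2.2, 2.04 and 2.68 CPM untreated (0.81 ± 0.22 (SE; adjusted p = 0.00514) for LY500307 against untreated). Its level was low, and the order of the groups was the same. CISH, a cytokine-signalling inhibitor, was also past the untreated level, with 4.24, 5.74 and 5.69 CPM with LY500307, 1.44, 1.49 and 1.23 CPM with vehicle and 3.69, 3.04 and 3 CPM untreated (0.69 ± 0.17 (SE; adjusted p = 0.00237)). SLC7A5, an amino acid transporter, followed at a high level, with 498, 484 and 472 CPM with LY500307, 312, 301 and 351 CPM with vehicle and 399.7, 414 and 405 CPM untreated. Its excess over untreated cells was small (0.26 ± 0.05 (SE; adjusted p = 0.000634)). The other members were KAZN, C1QTNF6, HSPA1A, RASGRP1, SYVN1, NOL6 and 2 long noncoding RNAs, with changes from untreated of 0.12 (NOL6) to 1.24 (LINC02568). With the GC and length offsets, SLC7A5, KAZN, HSPA1A, SYVN1 and NOL6 were agonist-only and RASGRP1 was at the full-medium level. DESeq2 placed 4 genes in this class, GREB1, C1QTNF6, KAZN and SLC7A5, and calls of at least 1.5-fold left 5. TFF1 and CISH thus left the class with DESeq2, and each kept it in 18 of 19 refits. GREB1 and C1QTNF6 kept it in 19 of 19, but RASGRP1 in 7, NOL6 in 8, SYVN1 in 9 and HSPA1A in 12.

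CA12, a carbonic anhydrase of the cell surface, returned to the full-medium level. It had 118, 131 and 127 CPM with LY500307, 44.4, 44.3 and 44.9 CPM with vehicle and 114, 124 and 122 CPM untreated. LY500307 and untreated libraries overlapped, and the vehicle libraries lay well below both. The change from untreated was 0.06 with a 95% interval of -0.05 to 0.17, and that from vehicle was 1.49 ± 0.06 (SE; adjusted p = 8.36e-12). IGFBP4, which binds insulin-like growth factors, had 22.1, 20.4 and 22.3 CPM with LY500307, 7.32, 8.76 and 8.72 CPM with vehicle and 19.8, 22.8 and 18.9 CPM untreated, with an interval of -0.11 to 0.25 against untreated. CA12 kept this class in 19 of 19 refits and IGFBP4 in 17, and with the GC and length offsets IGFBP4 went past the level. PPM1K, a mitochondrial phosphatase of branched-chain amino acid breakdown, averaged 14.5 ± 0.228 CPM with LY500307, 9.06 ± 0.58 CPM with vehicle and 15.3 ± 0.373 CPM untreated (SD, n = 3 each), and its interval was too wide for the class with the offsets. MUC5B and RNF223 met the rule too but kept the class in 5 of 19 refits each and lost it with the offsets. In the other direction, HBP1, a transcriptional repressor, and PNRC1, a nuclear receptor coactivator, were higher with vehicle than untreated, and both were at the untreated level with LY500307. HBP1 had 44, 39.6 and 45 CPM with LY500307, 53.9, 52.7 and 52.7 CPM with vehicle and 40.1, 40.3 and 38.8 CPM untreated, and it overlaps COG5 on the other strand. SKAP2 and SYCP2 kept the class in 7 and 13 refits and had only a vehicle call with the offsets.

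**Figure D3:**
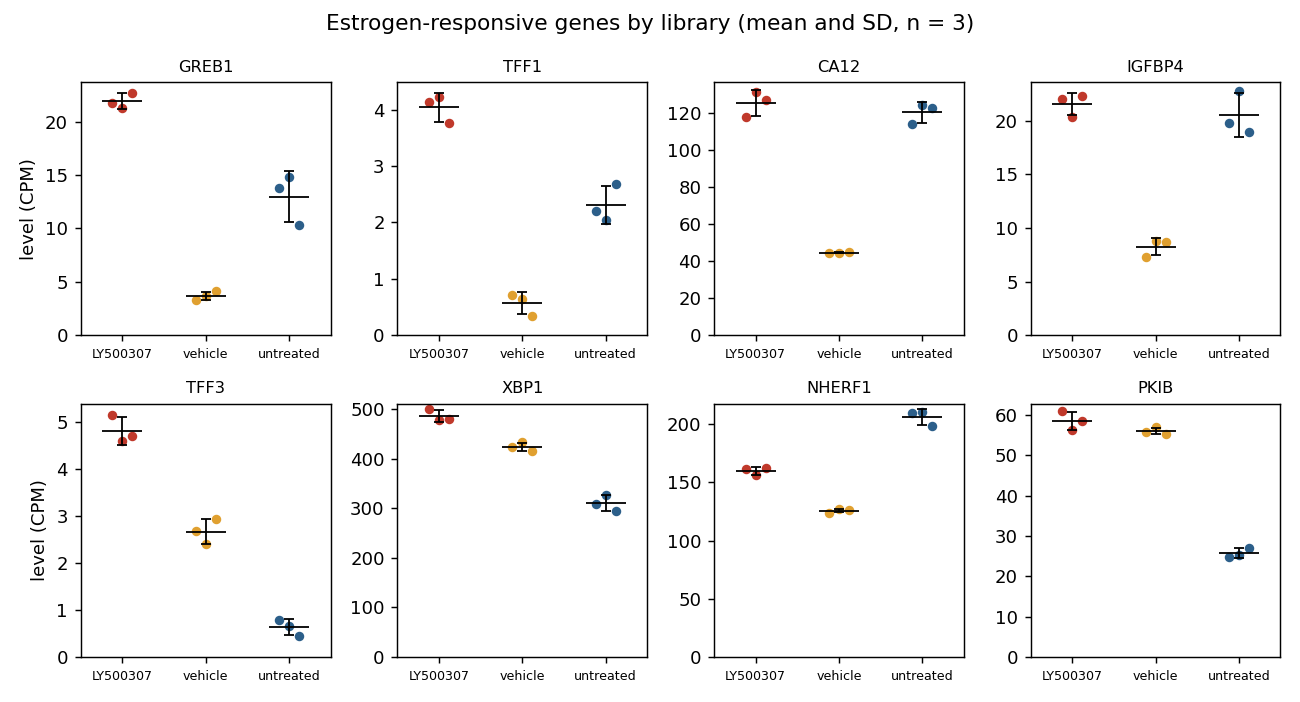
Points are libraries, and bars give the mean and SD of 3. The y axes give CPM and start at 0. GREB1 and TFF1 are highest with LY500307, CA12 and IGFBP4 are alike in LY500307 and untreated libraries, and TFF3 and XBP1 are highest with LY500307 and lowest untreated.

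MYBL1, another estrogen-responsive gene, was also at the full-medium level and kept that class in 18 of 19 refits, including that with the offsets. The estrogen-responsive genes named below did not return. TFF3, a second trefoil peptide, rose with vehicle and further with the agonist, to 5.15, 4.59 and 4.7 CPM with LY500307, against 2.68, 2.4 and 2.93 CPM with vehicle and 0.776, 0.663 and 0.447 CPM untreated (2.92 ± 0.23 (SE; adjusted p = 1.17e-09) for LY500307 against untreated). XBP1, a factor of the unfolded protein response, had 500.3, 478 and 480.1 CPM with LY500307, 424, 433 and 417 CPM with vehicle and 309, 327 and 295 CPM untreated. No 2 of the 3 groups overlapped for either gene. PKIB, a protein kinase A inhibitor, and SERPINA1, a protease inhibitor, rose against untreated cells by 1.19 and 1.72 with adjusted p-values of 6.86e-12 and 2.8e-11, and neither was called between LY500307 and vehicle. NHERF1, STC2 and CTSD were called back from vehicle but stayed below the untreated level, at -0.37, -0.41 and -0.29. With the GC and length offsets CTSD was at the full-medium level.

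Among genes pushed further by the agonist, GRIK3, a glutamate receptor subunit, had 13.6, 14.6 and 15.8 CPM with LY500307, 3.46, 3.52 and 3.61 CPM with vehicle and 1.1, 1.6 and 0.83 CPM untreated. It rose against both groups, by 3.61 ± 0.20 (SE; adjusted p = 4.78e-12) against untreated and 2.05 ± 0.15 (SE; adjusted p = 1.1e-07) against vehicle. KRT15, a basal keratin, had 68, 72.5 and 70.9 CPM with LY500307, 57.5, 52.7 and 58.3 CPM with vehicle and 17.7, 18.2 and 15.2 CPM untreated. DIO3, which inactivates thyroid hormone, had 15.1, 13.8 and 13.3 CPM with LY500307, 8.75, 9.5 and 9.95 CPM with vehicle and 3.24, 2.65 and 3.32 CPM untreated. Both kept the class in 19 of 19 refits. ATP8A1, a phospholipid flippase, fell further, to 33.8, 31.7 and 32.9 CPM with LY500307, against 40.2, 41.6 and 38.9 CPM with vehicle and 61.8, 60.3 and 61.2 CPM untreated. LIMCH1, ST8SIA1, NR3C1 and SKIL met the rule in the same direction, but their changes from vehicle reached no further than -0.22 and were not called with the GC and length offsets.

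Agonist-only changes depended on the processing, and none of the 10 genes named here kept the class with the GC and length offsets. TNFAIP2, a tumour necrosis factor-induced gene, had 31.1, 38.8 and 31.5 CPM with LY500307, 19.8, 19.4 and 24.5 CPM with vehicle and 19.3, 17.3 and 19.2 CPM untreated (0.86 ± 0.10 (SE; adjusted p = 8.22e-07) against untreated). TSKU, a secreted regulator of BMP and Wnt signalling, had 368, 359 and 357 CPM with LY500307, 251, 251 and 275 CPM with vehicle and 251, 259 and 239 CPM untreated. Vehicle and untreated libraries overlapped for TSKU, and the LY500307 libraries lay above both. Among falls, DIO2, which activates thyroid hormone, had 229, 225 and 219 CPM with LY500307, 275, 286 and 286 CPM with vehicle and 278, 295 and 319 CPM untreated (-0.41 ± 0.05 (SE; adjusted p = 1.47e-06)). TRIM47, OSGIN1 and ACOT4 also rose, and DNM3, CXXC4, MME and FLRT3 also fell, by -0.33 (FLRT3) to -0.51 (DNM3). With the offsets TNFAIP2, TSKU, DIO2 and OSGIN1 were also called between vehicle and untreated libraries in the same direction, and were called further from untreated by the agonist. TRIM47, MME and FLRT3 lost their call against vehicle and gained one between vehicle and untreated, while DNM3, CXXC4 and ACOT4 were called between LY500307 and untreated alone. TNFAIP2, TSKU and OSGIN1 kept the class in 18 of 19 refits, DIO2 in 15, CXXC4 in 6 and ACOT4 in 7.

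Among the 10 largest falls against untreated cells were ID1, ID3 and ID4, targets of the bone morphogenetic protein (BMP) pathway, in which ligands activate SMAD proteins that switch on the ID genes. ID proteins block basic helix-loop-helix factors, and SMAD6 is a feedback inhibitor. ID3 had 7.24, 6.76 and 6.63 CPM with LY500307, 7.45, 6.83 and 7.63 CPM with vehicle and 126, 130.2 and 129.8 CPM untreated (-4.22 ± 0.07 (SE; adjusted p = 1.46e-19) for LY500307 against untreated). ID1 had 9.85, 9.91 and 9.92 CPM with LY500307, 10.8, 9.4 and 9.13 CPM with vehicle and 115, 117 and 123 CPM untreated. LY500307 and vehicle libraries overlapped for both, far below the untreated ones. ATOH8, a helix-loop-helix factor outside the TGF-β, BMP and ID list, fell the most of the 10, to 0.17, 0.302 and 0.293 CPM with LY500307 and 0.196, 0.267 and 0.204 CPM with vehicle, against 26.2, 25.4 and 26.2 CPM untreated (-6.63 ± 0.29 (SE; adjusted p = 2.14e-17)). ID4 fell by 3.26 and SMAD6 by 2.58 on the log2 scale. Of 19 TGF-β, BMP and ID genes tested, 4 were higher and 13 lower (median -0.47, against -0.0023 for all genes), with 4 and 13 for vehicle. The shares of all genes were 22.4% higher and 17.8% lower with LY500307, and 26.4% and 21.6% with vehicle. HEG1, CLIC5, ST3GAL5, PRRT1B, PCDH11X and GUCY1A2, which the list does not hold, complete the 10 largest falls, with log2 changes of -3.51 (HEG1) to -2.60 (GUCY1A2).

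BMP3, a ligand that antagonises other BMPs, rose the most, to 12.8, 13.9 and 14.8 CPM with LY500307 and 17.8, 16.3 and 16.3 CPM with vehicle, against 0.0647, 0.221 and 0.319 CPM untreated (6.03 ± 0.45 (SE; adjusted p = 2.87e-13) for LY500307 against untreated). CYP1A1, the classic target of the aryl hydrocarbon receptor, had 36.7, 25.9 and 28.9 CPM with LY500307, 37.2, 40.2 and 32.8 CPM with vehicle and 1.1, 1.1 and 0.575 CPM untreated (5.02 ± 0.28 (SE; adjusted p = 1.01e-13)). Neither was called between LY500307 and vehicle. IL1RL1, the receptor of interleukin-33, had 19.9, 25.5 and 19.5 CPM with LY500307, 26.3, 28.8 and 33.1 CPM with vehicle and 0.971, 1.16 and 1.47 CPM untreated. It was called back from vehicle, but in 13 of 19 refits and not with the GC and length offsets. GLYATL3, HEPACAM2, ST6GALNAC3, CYP4F8, GBP2 and CXCL17 had log2 changes of 4.37 (GLYATL3) to 3.38 (CXCL17). GLYATL3 was called back from vehicle too, but kept that class in 9 of 19 refits and not with the offsets. TNFRSF19, a receptor of the tumour necrosis factor family below the expression minimum for this ranking, was among the genes called back, with 5.21, 6.16 and 4.81 CPM with LY500307, 8.75, 8.44 and 8.04 CPM with vehicle and 0.324, 0.331 and 0.192 CPM untreated. IGFBP5, another binder of insulin-like growth factors, was called back from below, with 41.8, 43.7 and 43.3 CPM with LY500307, 32.6, 33.4 and 30.8 CPM with vehicle and 243, 246 and 255 CPM untreated (-2.53 ± 0.04 (SE; adjusted p = 7.33e-19)), and it lost the call against vehicle with the offsets.

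**Figure D4:**
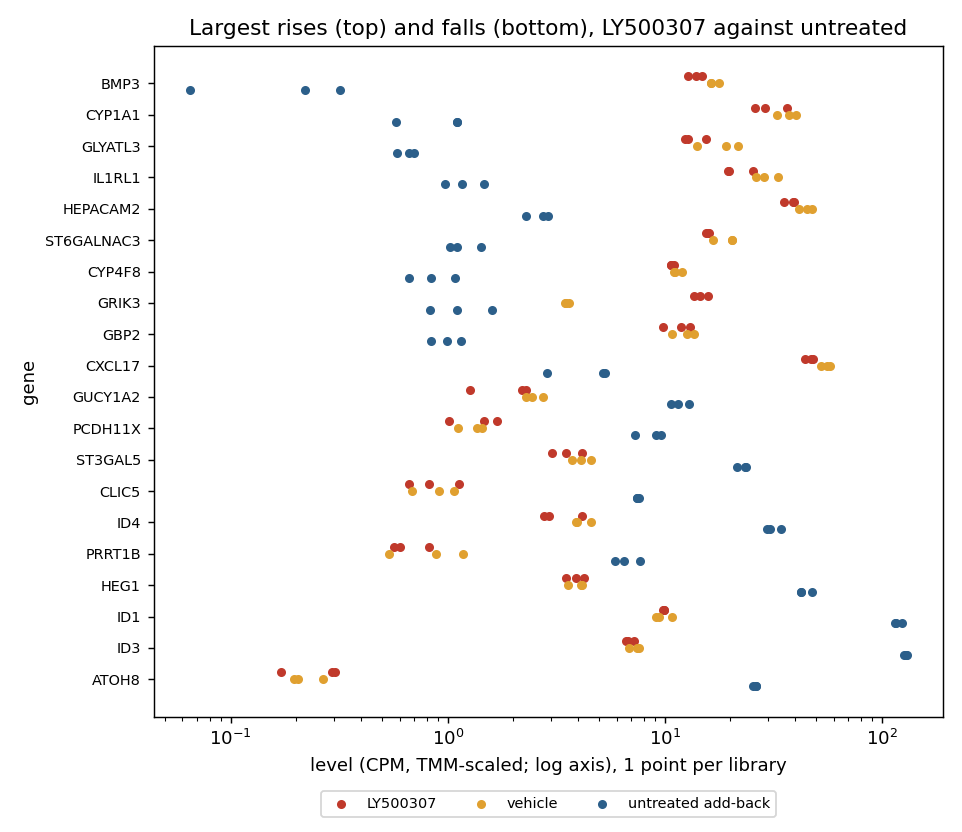
The x axis gives CPM on a log axis and each point is a library, with LY500307 above vehicle above untreated in each row. For 19 of the 20 genes LY500307 and vehicle were not called apart by 1.5-fold or more, and GRIK3 is the exception. IL1RL1 and GLYATL3 were called back from vehicle by less than that.

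Interferon-stimulated genes, which code for antiviral proteins, and genes of antigen presentation were higher with LY500307 than untreated. Among all genes tested, 22.4% were called higher and 17.8% lower with LY500307, and 26.4% and 21.6% with vehicle. Of 26 interferon-stimulated genes tested, 20 were higher and 0 lower (median 0.78), with 17 and 3 for vehicle. Many carry the interferon-stimulated response element, searched here as GAAANNGAAA on both strands of the 250 bases before to 50 after each RefSeq start site (GRCh38.p14). Of the 19 list members with a promoter in that table, 15 held it, and so did 3.57% of all 35116 promoters. Of the 15 members called higher that had a promoter, 12 held it, and 3 members not called higher held it too. Because many genes of this kind carry the element, its excess in the list says nothing about these libraries. Of 12 antigen-presentation genes with a promoter, 6 held it. The estrogen response element GGTCANNNTGACC was in 0 of 15 promoters of the estrogen list (0.0570% of all), the sterol element TCACNCCAC in 1 of 18 of the cholesterol list (1.13%) and the xenobiotic core GCGTG in 8 of 12 of the aryl hydrocarbon receptor list (36.5%). No match says only that these letters are not in this window. The stretches below show the match, in capitals, for 4 genes that rose and for ISG15, which holds it and was not called against untreated cells. Overlapping matches run together, and matches on the other strand appear as the reverse complement.
SAMD9 (chr7:93118071-93118150, minus strand): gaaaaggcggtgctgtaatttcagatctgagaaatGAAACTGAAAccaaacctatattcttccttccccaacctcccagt
IFIH1 (chr2:162318793-162318872, minus strand): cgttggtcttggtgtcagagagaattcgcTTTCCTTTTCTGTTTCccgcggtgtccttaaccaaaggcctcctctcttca
IFIT1 (chr10:89392485-89392564, plus strand): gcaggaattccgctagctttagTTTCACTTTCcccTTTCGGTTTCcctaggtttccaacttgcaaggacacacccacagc
B2M (chr15:44711344-44711423, plus strand): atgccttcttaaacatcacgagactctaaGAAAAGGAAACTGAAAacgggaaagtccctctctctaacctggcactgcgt
ISG15 (chr1:1013355-1013434, plus strand): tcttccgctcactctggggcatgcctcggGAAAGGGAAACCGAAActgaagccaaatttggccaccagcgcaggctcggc

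SAMD9, an antiviral restriction factor, had 41.6, 44.9 and 51.4 CPM with LY500307, 52.4, 49.4 and 49.1 CPM with vehicle and 17.1, 18.7 and 18 CPM untreated (1.36 ± 0.07 (SE; adjusted p = 6.28e-12) for LY500307 against untreated). OAS3, a sensor of double-stranded RNA, had 143, 154 and 146 CPM with LY500307, 138, 144 and 147 CPM with vehicle and 83.7, 90.2 and 85.9 CPM untreated. LY500307 and vehicle libraries overlapped for both and lay above all untreated ones. IFIH1 and IFIT1 rose by 0.83 and 1.21, and ISG15 had 7.75, 6.64 and 6.52 CPM with LY500307, 4.25, 3.26 and 4.63 CPM with vehicle and 7.38, 8.12 and 7.09 CPM untreated. B2M, the light chain of class I molecules, had 443, 427 and 411 CPM with LY500307, 444, 476 and 437 CPM with vehicle and 231, 245 and 236 CPM untreated. Of 17 antigen-presentation genes, 12 were higher and 0 lower (median 0.44), beside 22.4% and 17.8% of all genes. Targets of NF-κB moved likewise, 12 of 13 higher and 1 lower (median 1.21). CXCL8, a neutrophil chemokine, had 17.1, 14 and 14.5 CPM with LY500307, 10.3, 11.8 and 10.4 CPM with vehicle and 1.68, 1.93 and 2.81 CPM untreated. BIRC3, an inhibitor of cell death, had 42.8, 38.9 and 36.7 CPM with LY500307, 27.9, 27.2 and 25.8 CPM with vehicle and 14.7, 14.9 and 17.6 CPM untreated, and both were called further from untreated by the agonist. CD68 rose beside these lists, by 3.14, while PTPRC and CD3E had at most 23 reads over a group.

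Most targets of other hormone receptors that were called with vehicle stayed changed with LY500307, and some of these were called partly back. Of 19 glucocorticoid-receptor genes tested, 4 were higher and 12 lower (median -0.30), the same counts as with vehicle though not all the same genes. Among the 19, 10 stayed changed with no call against vehicle, 3 were called back and 1 further. Over all genes tested, 22.4% were higher and 17.8% lower. PER1, a clock gene and glucocorticoid target, had 3.17, 3.08 and 3.11 CPM with LY500307, 1.44, 2.4 and 2.79 CPM with vehicle and 11.4, 12.5 and 10.5 CPM untreated (-1.88 ± 0.16 (SE; adjusted p = 6e-09)). NR3C1, the receptor itself, had 44.4, 47.8 and 45.1 CPM with LY500307, 52.8, 53.4 and 48.6 CPM with vehicle and 90.3, 92.7 and 95.5 CPM untreated. SCNN1A, a sodium channel subunit that overlaps LTBR on the other strand, was called partly back, with 162, 164 and 166 CPM with LY500307, 124, 132 and 141 CPM with vehicle and 231, 236 and 229 CPM untreated. Of 15 genes of the retinoid, vitamin D and thyroid list, 3 were higher and 9 lower, with 3 and 10 for vehicle. Between LY500307 and vehicle, 4 were called higher and 3 lower, and 6 that stayed changed were called back. TGM2, a retinoid-induced transglutaminase, fell by 1.53 and RARB, a retinoic acid receptor, rose by 1.55 on the log2 scale. Both were called partly back from vehicle, in 17 and 14 of 19 refits, but not with the GC and length offsets. RARA, lower in both depleted groups, and THRB, higher in both, were called back in 19 of 19 refits.

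Genes of cholesterol synthesis, switched on by SREBP2 when sterol is scarce, were higher for 21 and lower for 1 of 25 tested (median 0.42), with 20 and 1 for vehicle. STARD4, a sterol carrier, had 14.4, 15 and 14.3 CPM with LY500307, 17.1, 17 and 16.3 CPM with vehicle and 2.98, 2.65 and 3.07 CPM untreated. HMGCS1, an early enzyme of the pathway, had 129.8, 130.4 and 133 CPM with LY500307, 152, 152 and 140.5 CPM with vehicle and 65.7, 71.6 and 73 CPM untreated (0.90 ± 0.04 (SE; adjusted p = 2.4e-12)). Both lay above all untreated libraries. Genes that FOXO factors raise when insulin signalling drops included 11 higher and 4 lower of 20 (median 0.50), beside 22.4% and 17.8% of all genes. CCNG2, an unusual cyclin of resting cells, had 60.6, 57.5 and 56.3 CPM with LY500307, 79.5, 84.1 and 72.9 CPM with vehicle and 30.2, 31.8 and 29.3 CPM untreated, and FBXO32, a ubiquitin ligase subunit, had 69, 74.6 and 68.1 CPM with LY500307, 82.7, 89.7 and 90.1 CPM with vehicle and 26.4, 28.1 and 28 CPM untreated. Both were called partly back from vehicle in 19 of 19 refits. FOXO3 itself was called further up. In the aryl hydrocarbon receptor list 10 of 16 were higher and 3 lower, and ALDH3A1, an aldehyde dehydrogenase, had the smallest p (2.33 ± 0.06 (SE; adjusted p = 3.5e-16)).

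Of 28 replication-dependent histones tested, 2 were higher and 14 lower with LY500307 than untreated (median -0.20), beside 22.4% and 17.8% of all genes. With vehicle 2 were higher and 21 lower (median -0.45), beside 26.4% and 21.6%. For LY500307 against vehicle, with shares of 4.77% and 2.35% over all genes, 15 histones were higher and 0 lower. The last count was 7 of 26 with the GC and length offsets, 4 without LY500307 1 or without LY500307 2, and 1 without vehicle 1 or without vehicle 2. H2BC5 had 72.9, 72.3 and 65 CPM with LY500307, 46.6, 41.5 and 56.5 CPM with vehicle and 122, 124 and 104 CPM untreated. The groups did not overlap. Histone genes are near-identical copies among which reads may have been split, so single members are uncertain. Mitotic genes depended on the processing, with 8 higher and 2 lower of 30, but 3 and 11 with the offsets, so no direction is given.

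In the list of mucins and secreted epithelial products 11 of 15 were higher and 2 lower (median 0.70), beside 22.4% and 17.8% of all genes. With vehicle 10 were higher and 2 lower. LCN2, an iron-siderophore binder, had 404, 425 and 422 CPM with LY500307, 419.6, 413 and 446 CPM with vehicle and 96.5, 97.8 and 93 CPM untreated (2.12 ± 0.05 (SE; adjusted p = 6.16e-17)). In the list of ERBB receptors and ligands 9 of 14 were higher and 3 lower, with 9 and 3 for vehicle. Between LY500307 and vehicle 0 were called, and 2 were called lower with the GC and length offsets. EGFR had 79.1, 87.2 and 83.1 CPM with LY500307, 83.9, 88.3 and 84.5 CPM with vehicle and 53.9, 56.3 and 57.4 CPM untreated, and its ligand BTC had 16.4, 15.6 and 12.9 CPM with LY500307, 17.2, 16.7 and 15.7 CPM with vehicle and 5.82, 5.63 and 7.47 CPM untreated. ERBB4 moved the other way, by -1.05 ± 0.11 (SE; adjusted p = 4.48e-07).

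**Figure D5:**
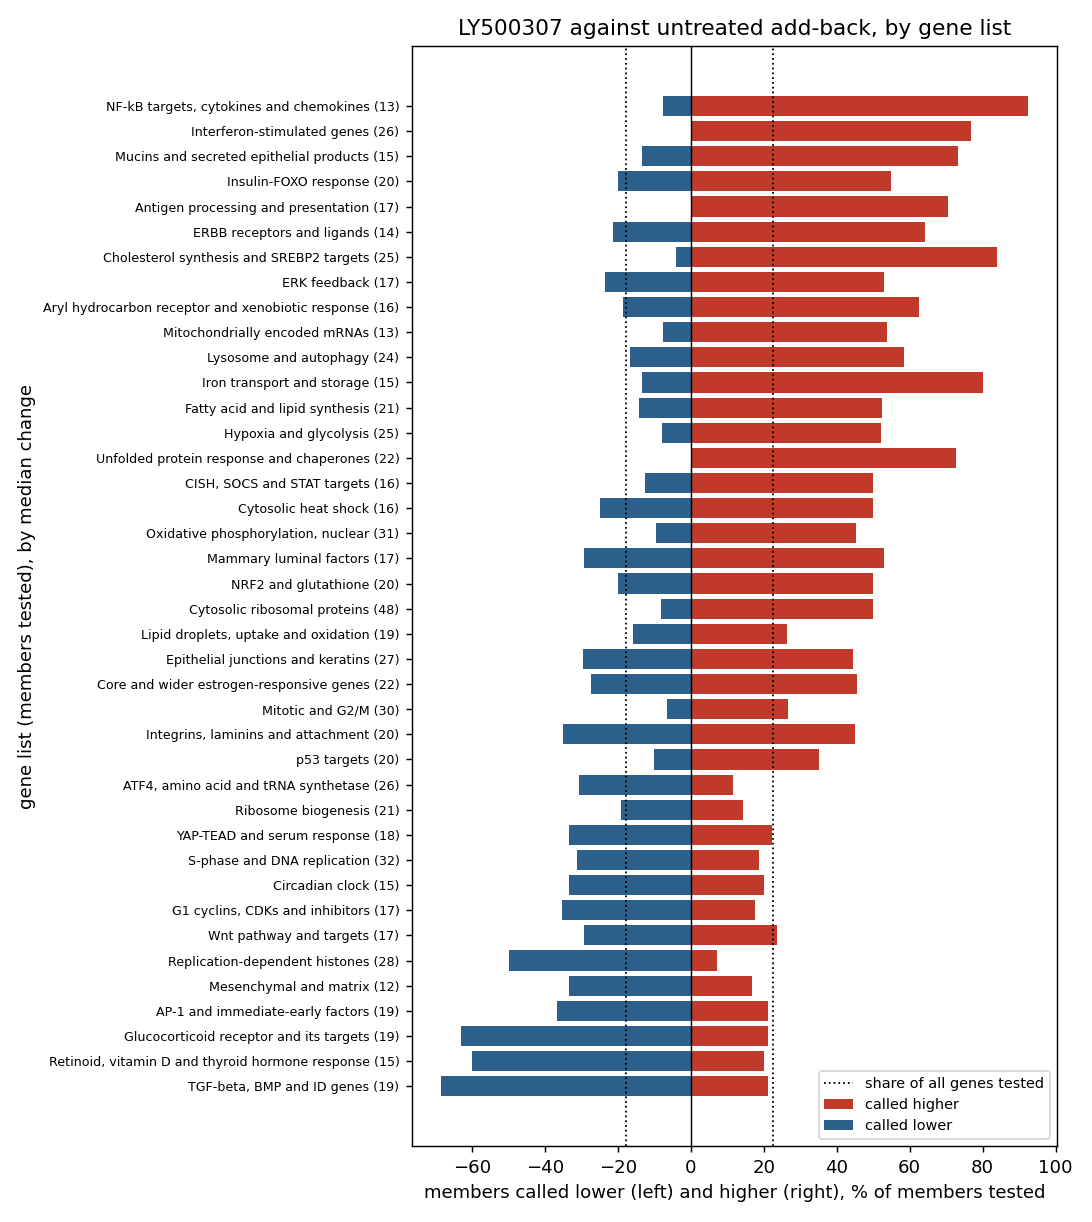
Bars give the percentage of each list's tested members (number in brackets) called higher, to the right, and lower, to the left, with LY500307 than untreated. Dotted lines give the same shares over all genes tested, 22.4% and 17.8%. Lists run by the median log2 change of their members, the NF-κB list having the highest of those plotted and the TGF-β list the lowest.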

How the data were processed

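Expected counts per gene were deposited as RSEM gave them, without normalization. The submitters' processing notes name the build GRCh38 and the tools RSEM, GSNAP, Trim Galore and FastQC, with no roles. Versions, annotation and the use of strand in counting are not given in the sources used here. The deposited table held 60664 genes, of which 58396 matched GENCODE 29. Expected counts were rounded, filtered with filterByExpr by group and fitted with edgeR 4.0.16 (R 4.3.3; TMM, 1 group-means model of all 15 libraries, two-sided quasi-likelihood F test, Benjamini-Hochberg adjustment over 19516 genes). Standard errors and 95% intervals are Wald values of that fit. Levels are TMM-scaled CPM and are not per length. Log2 means use a prior count of 2.

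The comparisons, members and gene lists were chosen with earlier results of these data known. Named genes were ESR2 and ESR1, the 10 largest rises and falls (called, protein-coding, averaging 1 or more in log2 CPM, the groups not overlapping), 5 per class and direction, and up to 4 called members of each list by p, of which the text describes a selection.

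Replicate numbers did not pair libraries: residual correlations of same-numbered libraries ran from -0.095 to 0.060, and 0 of 30 exceeded 0.1. The script was tested on simulated data for LY500307 against untreated, with 50 genes changed at each fold. It called 46% of changes of 1.25-fold, 80% of 1.5-fold, 88% of 2-fold and 96% of 4-fold, with 13 false calls. A missing call therefore does not show that a gene was unchanged. Alternatives used DESeq2 1.42.0, limma-voom (limma 3.58.1), other factors and filters, fewer libraries, a replicate block and offsets for GC content and length (mgcv 1.9.3).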

Additional observations from a re-analysis of the deposited data

How the results depend on the processing

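The numbers of genes called in LY500307 and in vehicle against untreated stayed within 1.5 times in every alternative, and the number for LY500307 against vehicle did not. Similar numbers did not mean the same genes. With the GC and length offsets, which covered 19093 genes, 5841 of the 7850 calls for LY500307 against untreated were made again. For vehicle against untreated, 6189 of the 9381 were. Leaving out 1 library at a time gave 6710 to 7298 genes for LY500307 against untreated, 8018 to 8934 for vehicle against untreated and 299 to 1844 for LY500307 against vehicle. It gave 5812 to 6555 genes that stayed changed, 153 to 1040 called back, 20 to 80 called further, 69 to 415 at the full-medium level, 8 to 15 past it and 31 to 142 for the agonist only. Offsets for GC content and length left 324 genes for LY500307 against vehicle, 151 called back, 33 called further, 72 at the full-medium level and 38 for the agonist only. Calls of at least 1.5-fold left 2077, 44, 6, 8, 5 and 14 genes that stayed changed, were called back, were called further, sat at the level, went past it and were agonist-only. The class past the level held 4 genes by DESeq2 and 25 with no filter on low counts. With LY500307 3 and vehicle 3 both left out, a setting chosen after seeing the data, it held 19 genes and the agonist-only class 170. The cause of these differences was not tested. Replicate numbers did not pair the libraries, and a replicate block gave 7655, 9123 and 1216 calls for the 3 comparisons. CYC1, lower with LY500307 than untreated, had a log2 change of 0.036 with the offsets. Of 3790 values of named genes under the alternatives, 3749 kept direction and call, 40 lost the call and 1 turned round. Each gene was scored on 1 comparison, LY500307 against untreated where that was called. Many were chosen for their size or p in it, so most were bound to keep the call. The tally does not score the classes, which were less stable: NR3C1 and SKIL kept theirs in 5 of 19 refits each.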
